A study of Mus musculus with 6 samples.

Results

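Maf, Maff, Mafg, Mafk, Bach1, Bach2, Nfe2l2 and Keap1, the Maf, Bach and Nrf2 factors with the inhibitor of Nrf2, were examined through every ATAC-seq peak whose nearest gene in the deposited table is one of them. That rule gave 152 of 92864 peaks, on 7 of the 8 genes. Bach2 had 54 of these peaks, Maf 47, Bach1 22, Nfe2l2 12, Maff 6, Keap1 6 and Mafk 5, and Mafg was not analysed here. Of the 152 peaks, 15 were of promoter class, 55 lay in introns and 80 were distal intergenic. The assay, in which the Tn5 transposase cuts open chromatin, was run on myeloid cells sorted from brain tumours. Both groups were gated on F4/80+ CD11b+ events with low or absent LY6C and no LY6G. BMDM, bone marrow derived macrophages, were in addition CD45+ with high CD49d, and MG, the microglia that reside in the brain, had low CD45 together with low or absent CD49d. Both were labelled WT and came from orthotopic tumours of SB28, a mouse glioma line. Each group had 3 libraries, and neither the age of the mice nor the animal behind each library is stated.

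Of these proteins all but Keap1 are basic leucine zipper factors that bind related DNA elements. Maf is a large Maf protein with an activation domain, and in macrophages it promotes terminal differentiation. The small Mafs Maff, Mafg and Mafk have no activation domain of their own and serve as partners on DNA. Nrf2, the product of Nfe2l2, pairs with a small Maf to activate genes of antioxidant defence and iron handling, while Bach1 and Bach2 pair with the same small Mafs and repress. Keap1 holds Nrf2 in the cytoplasm and hands it to the Cul3 ubiquitin ligase, and Bach1 is released from DNA by haem, so that Bach1 and Nrf2 compete for sites such as the enhancers of Hmox1. Bach2 is best known for restraining the differentiation of lymphocytes.

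Nrf2 with a small Maf recognises the antioxidant response element, whose core is TGACNNNGC. RefSeq promoter windows (build GRCm38.p6, from 250 bases before to 50 bases after a start site) were searched for it on both strands. Of 8 windows of 6 of the genes, 3 held the core, 1 each for Maff, Mafk and Nfe2l2, and 12.4% of all 32851 windows held it. The AP-1 site TGAGTCA was in none of the 8 windows and in 5.20% of all windows. The longer CNC-Maf element, which is TGC followed by that AP-1 site, was also in none of the 8 and in 0.155% of all. The 3 windows with the core are shown because each overlaps a promoter-class peak of its gene, with the core in capitals, 5′ to 3′ along the gene. A match is a description of letters, not a shown binding site. The windows are chr15:79346371-79346670 (plus strand) for Maff, chr5:139791286-139791585 (plus strand, core on the opposite strand) for Mafk and chr2:75704614-75704913 (minus strand) for Nfe2l2.
Maff: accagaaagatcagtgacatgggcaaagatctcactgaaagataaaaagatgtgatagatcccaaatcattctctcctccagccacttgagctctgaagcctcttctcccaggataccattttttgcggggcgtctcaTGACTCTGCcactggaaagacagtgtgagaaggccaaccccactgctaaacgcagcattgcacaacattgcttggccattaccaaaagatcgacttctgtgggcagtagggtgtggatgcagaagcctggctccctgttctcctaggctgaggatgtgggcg
Mafk: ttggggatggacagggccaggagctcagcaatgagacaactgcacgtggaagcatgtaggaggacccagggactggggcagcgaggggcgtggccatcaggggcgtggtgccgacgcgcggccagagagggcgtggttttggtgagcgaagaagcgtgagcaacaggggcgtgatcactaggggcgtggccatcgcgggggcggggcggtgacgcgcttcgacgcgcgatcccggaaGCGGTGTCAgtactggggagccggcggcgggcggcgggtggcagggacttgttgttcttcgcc
Nfe2l2: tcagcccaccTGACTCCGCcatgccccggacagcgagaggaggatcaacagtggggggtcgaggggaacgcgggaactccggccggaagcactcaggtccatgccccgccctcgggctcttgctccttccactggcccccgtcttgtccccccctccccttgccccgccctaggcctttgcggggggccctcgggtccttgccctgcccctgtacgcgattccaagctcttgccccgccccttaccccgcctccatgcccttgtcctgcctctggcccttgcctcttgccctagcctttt
The core began at base -112 from the Maff start, at -13 from that of Mafk and at -240 from that of Nfe2l2. The Mafk and Nfe2l2 cores were inside the main promoter peak of their gene, and the Maff core was inside none of the Maff peaks.

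Reads in peaks numbered 7167211, 19727511 and 4910448 in BMDM 1, 2 and 3 and 19244734, 23601865 and 12531808 in MG 1, 2 and 3, and the median peak held 20 to 66 reads in the BMDM libraries and 42 to 90 reads in the MG libraries. All values below are normalized counts, that is reads divided by the authors' size factor of the library, and 3 reads, the limit that a count of 0 allows, correspond to 1.94 to 5.95 in BMDM and 1.64 to 2.92 in MG. MG 1 and MG 2 were less alike than any other pair within a group. Across peaks the log2 values of MG 1 correlated at 0.766 with MG 2, at 0.896 with MG 3 and at 0.851 to 0.868 with the BMDM libraries. Those of MG 2 correlated at 0.935 with MG 3 and at 0.713 to 0.798 with the BMDM libraries. Summed over a list of marker genes, microglial markers were at 4879 to 5842 in BMDM and 8432 to 11927 in MG, and monocyte and macrophage markers at 4409 to 7268 in BMDM and 2894 to 3229 in MG, the order that the labels imply. Neural and glial markers summed to 6141 to 6811 in BMDM, and to 8457 in MG 1, 18985 in MG 2 and 12153 in MG 3. Neutrophil markers were at 1928 to 2955 in BMDM and 1595 to 2206 in MG. Their median log2 value, each gene centred on its own mean, was 0.27 to 0.51 in BMDM and -0.44 to -0.32 in MG. Lymphoid markers (3419 to 5595 in BMDM, 4421 to 5586 in MG), dendritic markers (4582 to 6628 in BMDM, 5102 to 7042 in MG) and endothelial markers (3562 to 5475 in BMDM, 4542 to 5215 in MG) overlapped between the groups. By the centred median used for neutrophil markers, lymphoid markers were at -0.02 to 0.50 in BMDM and -0.22 to -0.03 in MG. Dendritic and endothelial markers overlapped by it too. No marker gene with a peak was at 0 in any library. The part of other cells in the differences below was not tested.

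Of the 146 peaks with enough reads to test, 9 were more open in BMDM than in MG and none was less open (limma, Benjamini-Hochberg adjusted p under 0.05). That is 6.16% of the tested peaks of these genes, against 5.33% of all tested peaks more open and 1.54% less open in BMDM, so the share stood near the background. All 9 belonged to Bach2 (6) and Maf (3), and none to the other 5 genes. Without BMDM 1, BMDM 2 or MG 3 none of the 9 passed, as no peak of the whole table did, and without BMDM 3 4 passed. At an unadjusted p under 0.05, 39 of the 146 peaks were higher and 3 lower, against 13486 and 8429 of all 87944 tested peaks. Complete separation of the libraries was more common: all 3 BMDM libraries were above all 3 MG libraries at 42 of the 146 peaks (28.8%, against 17.0% of all tested peaks), and below them at 6 (4.11%, against 12.9% of all). By the authors' deposited table, a positive log2 fold change of BMDM over MG with adjusted p under 0.05 was found at 24 of the 152 peaks (15.8%), against 9.06% of all peaks, and 1 had a negative one, against 5.38%. Differences are given as log2 of BMDM over MG relative to the median tested feature, which was at -0.14 for peaks, -0.27 for gene sums and -0.31 for promoter sums, and the p-values test the difference before this shift. A lower value in a sorted sample can mean fewer cells with an open site or less opening per cell, and these cannot be told apart.

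At Maf, 3 peaks away from the promoter were more open in BMDM, while the promoter counts of all BMDM libraries were below those of all MG libraries without passing the test. The main Maf promoter peak (mm10 chr8:115706477-115708486) held 615, 789 and 393 normalized counts in BMDM 1, 2 and 3, against 1288, 819 and 809 in MG 1, 2 and 3. All BMDM values were below all MG values, with BMDM 2 close to MG 2 and MG 3, and the difference of -0.58 ± 0.37 (SE, n = 3 each) did not pass the test (limma adjusted p = 0.261). A smaller promoter-class peak beside it (chr8:115709379-115709673) had the same order, with 35.7, 49.2 and 38.0 in BMDM and 95.2, 76.0 and 71.9 in MG, and did not pass either (-0.83, adjusted p = 0.0921). Their sum was 651, 838 and 431 in BMDM and 1384, 895 and 880.5 in MG (-0.42 ± 0.35, adjusted p = 0.170), in a test where 2.75% of promoters were called higher and 9.16% lower in BMDM. None of the 7 promoter sums was called, none had all BMDM libraries above all MG libraries (5.36% of all promoters), and Maf alone had them below (23.0% of all).

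The 3 Maf peaks that passed the test were all more open in BMDM. Distances are in kb between the centres of a peak and of the main promoter peak, positive in the direction of transcription, which for Maf runs on the minus strand. The peak at 184.9 kb (chr8:115522378-115522831) held 99.2, 128 and 50.7 in BMDM, against 11.9, 26.8 and 10.7 in MG, a difference of 2.57 ± 0.48 (adjusted p = 0.0279). It appeared in the peak list of 1 BMDM library and of no MG library. The peak at 200.6 kb (chr8:115506422-115507381) held 99.2, 102 and 77.9 in BMDM, against 42.8, 35.5 and 40.8 in MG (1.33 ± 0.31, adjusted p = 0.0469). It was listed in 2 BMDM libraries and in all 3 MG libraries. The third, at -35.4 kb on the other side of the gene (chr8:115742642-115743170), held 101, 84.2 and 47.1 in BMDM, against 15.1, 28.4 and 12.6 in MG (2.14 ± 0.44, adjusted p = 0.0328). It was listed in 2 BMDM libraries and in 1 MG library. In all 3 the groups were apart, and BMDM 3 was the lowest BMDM library.

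Many of the distant Maf peaks were separated in the same direction. Of the 47 Maf peaks 34 were more than 100 kb from the annotated start, all downstream, and 31 of them were tested. In 17 of those 31 every BMDM library was above every MG library and in none below, against 23.0% of all tested peaks at such distances and 16.7% of those nearer. Their median difference was 0.99, between -0.34 and 2.57, and 2 of the 31 were called, against 6.75% of all such distant peaks called higher. Neighbouring peaks share a chromosome region and are not independent, and the table assigns a peak to its nearest gene, which need not be the gene it acts on. The 7 farthest lay in intron 8 of 8 of Wwox, an oxidoreductase gene next to Maf, and together held 371, 631 and 250 in BMDM and 136, 196 and 168 in MG. Over all 34 distant peaks the sums were 2849, 3339 and 1736 in BMDM and 1652, 1403 and 1328 in MG. Nearer than 100 kb, by contrast, 1 of the 9 tested peaks between 20 and 100 kb was above and none below.

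**Figure D1:**
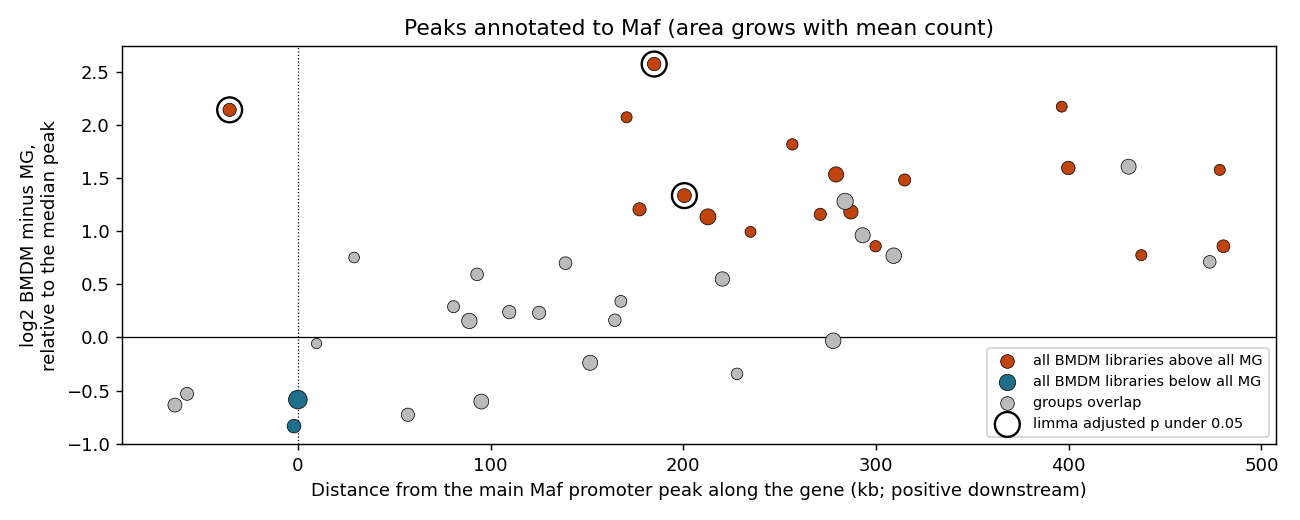
Each point is 1 tested Maf peak, placed by its distance in kb from the main promoter peak (x axis, positive downstream) and by its log2 difference of BMDM minus MG relative to the median peak (y axis); point area grows with the mean count, colour gives the order of the libraries, and rings mark adjusted p under 0.05. The 2 promoter-class peaks lie below 0, and beyond 100 kb 17 of 31 peaks have all BMDM libraries above all MG libraries.

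The sign of the Maf gene value depended on the distance counted. Within 100 kb Maf held 1168, 1397 and 850 in BMDM, against 2028, 1513 and 1399 in MG (-0.27 ± 0.31, adjusted p = 0.315). Maf alone of the 7 genes had every BMDM library below every MG library, an order found in 21.5% of all genes. With all annotated peaks it held 4017, 4736 and 2585 in BMDM, against 3681, 2916 and 2728 in MG, the groups overlapped and the sign turned (0.52, adjusted p = 0.7155). The promoter share of Maf counts does not depend on library scaling. Over all annotated peaks it was 16.2%, 17.7% and 16.7% in BMDM, against 37.6%, 30.7% and 32.3% in MG. The log2 ratio of promoter to other counts differed by -1.31 ± 0.23, or -1.07 relative to the median gene (adjusted p = 0.0325, with 3.42% of all genes lower). This ratio was added after the distant peaks had been seen, and its adjusted p was 0.0902 to 0.1365 without 1 of BMDM 1, BMDM 2 and BMDM 3, and 0.171 without MG 3. In these settings the ratio of no gene passed. Within 100 kb the share was 55.7%, 59.99% and 50.8% in BMDM, against 68.2%, 59.1% and 62.9% in MG, and the ratio did not pass the test (adjusted p = 0.328).

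A pair of upstream Maf peaks went with a different library. At -57.5 kb (chr8:115764521-115765458) the counts were 25.8, 16.8 and 34.4 in BMDM and 10.3, 127 and 45.7 in MG. At -63.8 kb (chr8:115770849-115771813) they were 37.7, 38.9 and 36.2 in BMDM and 16.7, 197 and 80.7 in MG. In both MG 2 was highest and MG 3 next while MG 1 was lowest, the order of the libraries by their neural and glial markers within MG, and neither passed the test (adjusted p = 0.626 and 0.546). Of the 146 tested peaks 5 had MG 2 highest and MG 3 next (3.42%, against 16.3% of all peaks): these 2, 2 of Bach2 and 1 of Bach1. The highest library was BMDM 1 or BMDM 2 at 24.0% and 40.4% of the 146 peaks, against 14.9% and 18.4% of all.

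The small Mafs were open in both groups, and none of their peaks passed the test. Maff had 6 peaks, all tested and all above the median peak in their difference (0.15 to 1.08), and Mafk had 5 (-0.18 to 1.01). Within 100 kb Maff held 5493, 4075 and 2687 in BMDM and 4263, 2876 and 3019 in MG (0.50 ± 0.38, adjusted p = 0.752). Mafk held 2847, 2006 and 1466 in BMDM and 2318, 1485 and 1554 in MG (0.48 ± 0.34, adjusted p = 0.739). In both genes the groups overlapped, with BMDM 1 highest and BMDM 3 lowest of all 6 libraries. Across genes, 2.14% were called higher and 3.51% lower in BMDM, and none of the 7 genes was called.

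The main Maff promoter peak (chr15:79346968-79348643) held 2795, 2054 and 1420 in BMDM and 2347, 1857 and 1832 in MG, and with its neighbour the promoter sum differed by 0.38 ± 0.47 (adjusted p = 0.951). That neighbour, immediately upstream (chr15:79346157-79346464) and reaching into the printed Maff window but not to its core, was the Maff peak with the smallest p. It held 194, 199 and 120 in BMDM and 80.9, 97.9 and 80.7 in MG, with the groups apart (1.08 ± 0.32, adjusted p = 0.0986). It was listed in 1 BMDM library and in no MG library.

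The main Mafk promoter peak (chr5:139791021-139792415), which holds the printed core, had 1595, 1101 and 786 in BMDM and 1610, 800 and 981 in MG (0.18 ± 0.40, adjusted p = 0.960). The Mafk peak with the smallest p was of promoter class too, 3.5 kb downstream (chr5:139794952-139795395). It had 496, 363 and 286 in BMDM and 263, 165 and 190 in MG, again without overlap (1.01 ± 0.33, adjusted p = 0.133). Promoter-class peaks held 96.3% to 99.2% of the Mafk counts in BMDM and 91.1% to 99.7% in MG. The remaining Mafk peak, at -6.7 kb, had 27.8, 16.8 and 54.3 in BMDM and 7.14, 133 and 49.6 in MG, with its highest count in MG 2.

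Bach2 carried the largest differences. Its 6 called peaks had differences between 2.31 and 3.29, and 4 of them lay upstream of the gene between -112.3 and -74.6 kb. The farthest (chr4:32126523-32127283) held 93.2, 186 and 103 in BMDM, against 7.14, 19.7 and 14.6 in MG, a difference of 3.29 ± 0.45 (adjusted p = 0.0260). It was listed in all 3 BMDM libraries and in no MG library, and the authors' deposited table gives it a log2 fold change of 3.21 with an adjusted p of 1.53e-06. At -99.3 kb (chr4:32139392-32140300) the counts were 41.7, 61.5 and 61.6 in BMDM and 3.97, 4.37 and 11.7 in MG (3.12 ± 0.52, adjusted p = 0.0260). At -90.1 kb (chr4:32148723-32149502) they were 85.3, 212 and 141 in BMDM and 15.9, 37.7 and 30.1 in MG (2.47 ± 0.44, adjusted p = 0.0266). At -74.6 kb (chr4:32164053-32165104) they were 107, 172 and 112 in BMDM and 19.8, 36.6 and 28.2 in MG (2.31 ± 0.36, adjusted p = 0.0260). In each of the 4 every BMDM library exceeded every MG library, and MG 1 was the lowest library.

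The upstream block was not uniform. Between the called peaks, the peak at -78.0 kb (chr4:32160827-32161496) held 53.6, 87.4 and 52.5 in BMDM and 25.4, 26.2 and 19.4 in MG and just missed the threshold (1.51, adjusted p = 0.0503). The peak at chr4:32153427-32153791 had a log2 fold change of -0.11 in the authors' deposited table. Within the gene, 2 intronic peaks passed the test. The one in intron 2 of 6 at 96.8 kb (chr4:32335726-32336237) held 39.7, 79.6 and 70.7 in BMDM and 4.76, 17.0 and 17.5 in MG (2.45 ± 0.54, adjusted p = 0.0368). The one in intron 3 at 185.5 kb (chr4:32424548-32424783) held 41.7, 34.3 and 29.0 in BMDM and 1.59, 9.84 and 4.86 in MG, the MG 1 value being under that library's limit of 2.38 (2.84 ± 0.65, adjusted p = 0.0395). The intron 3 peak lies 7.1 kb from a start site of a shorter annotated Bach2 transcript.

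**Figure D2:**
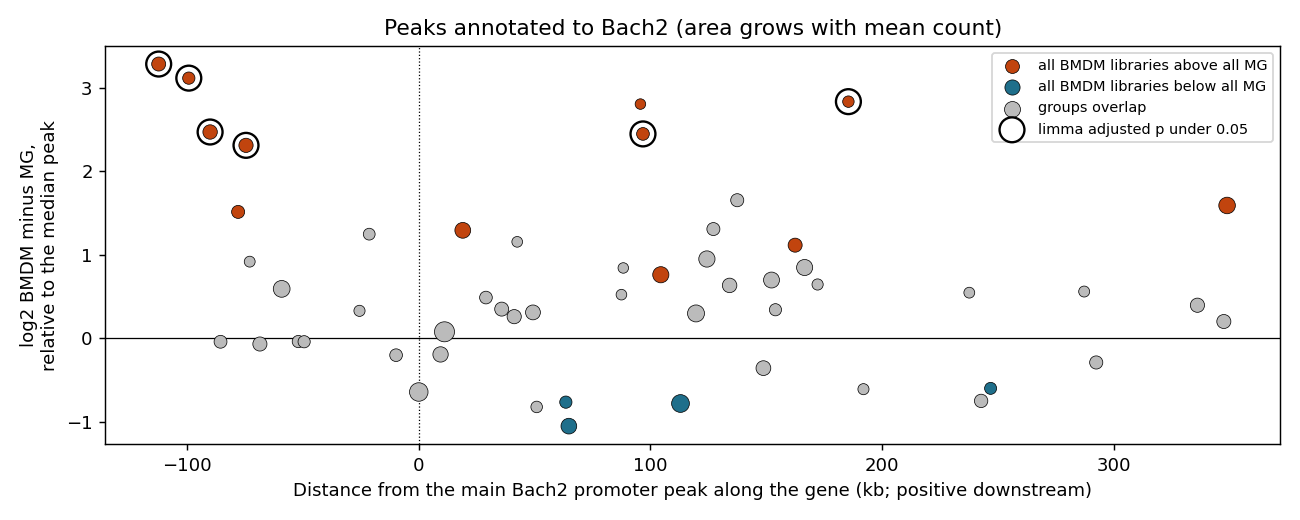
Each point is 1 tested Bach2 peak, placed by its distance in kb from the main promoter peak (x axis, positive downstream) and by its log2 difference of BMDM minus MG relative to the median peak (y axis); area, colour and rings are used as in the plot of Maf peaks. The 6 ringed peaks lie between 2.31 and 3.29, 4 of them upstream, while the main promoter peak lies at -0.65.

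**Figure D3:**
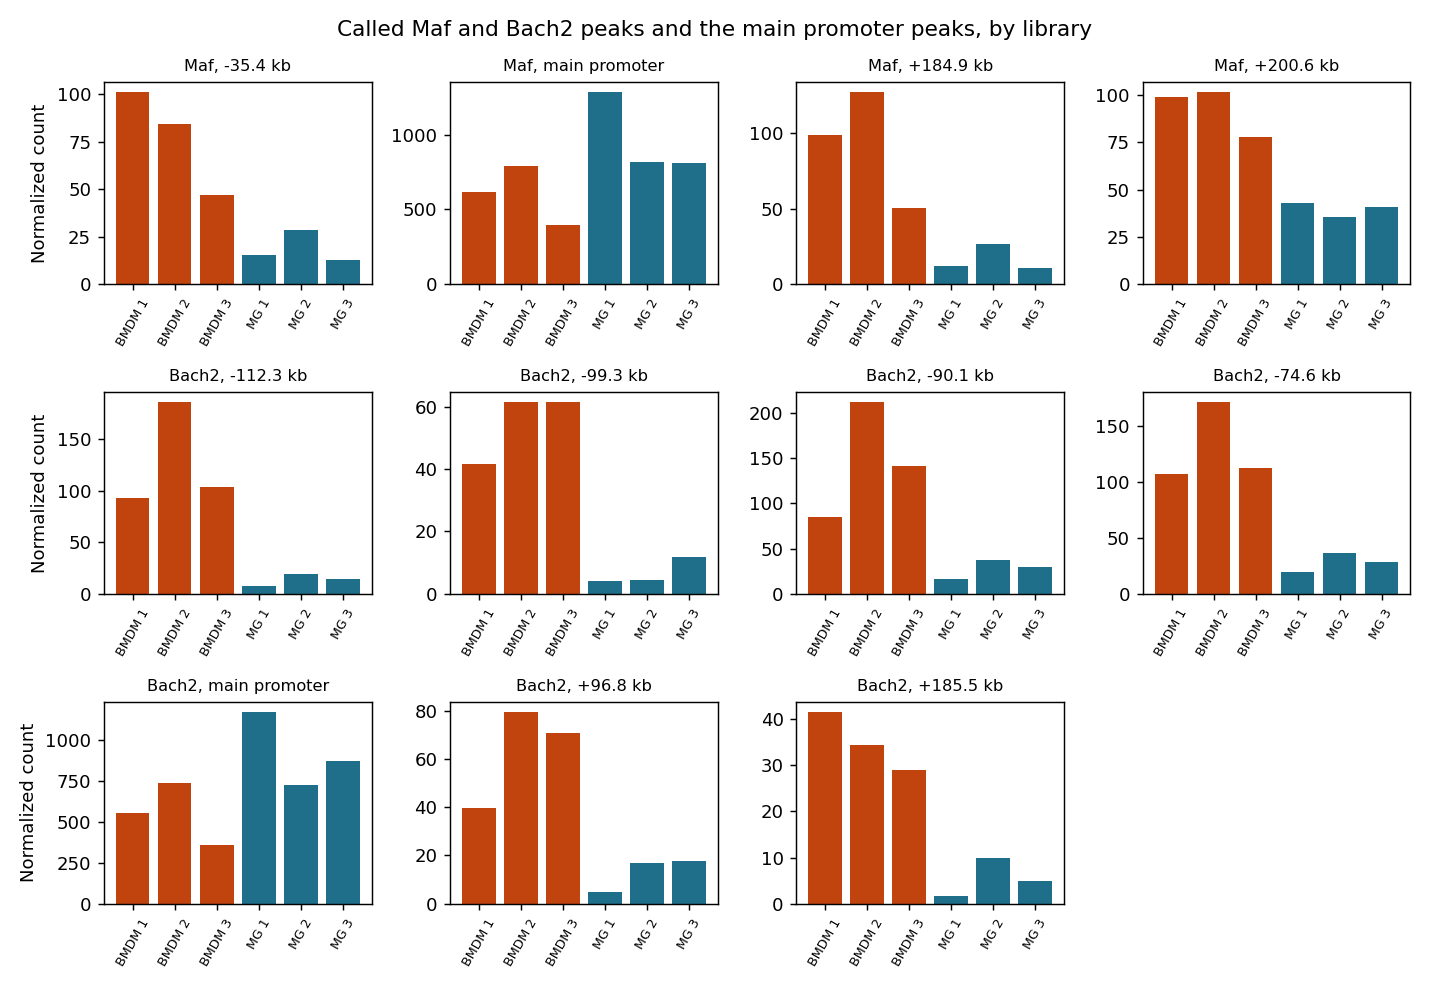
Bars give the normalized count in each library (y axis, starting at 0, with a scale of its own in each panel) for the 9 Maf and Bach2 peaks with adjusted p under 0.05 and for the main promoter peak of each gene; panel titles give the distance from that promoter peak. In the 9 called peaks all BMDM bars stand above all MG bars, and in the Maf promoter peak all BMDM bars stand below.

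Some Bach2 peaks, the main promoter peak among them, had a negative difference and did not pass the test. Of the 53 tested, 12 had all BMDM libraries above all MG libraries (22.6%, against 17.0% of all tested peaks) and 4 had them below (7.55%, against 12.9%). The main promoter peak (chr4:32238153-32240205) held 555, 735 and 359 in BMDM and 1174, 726 and 874 in MG, with BMDM 2 above MG 2 (-0.65 ± 0.36, adjusted p = 0.217). An intron 1 peak at 64.8 kb (chr4:32303144-32304756) held 91.3, 137 and 68.8 in BMDM and 140, 311 and 239 in MG (-1.06 ± 0.39, adjusted p = 0.0907). The authors' deposited table gives this peak a log2 fold change of -1.20 with an adjusted p of 0.0428, and it is the 1 peak of these genes called lower there. The promoter sum was 653, 860.5 and 402 in BMDM and 1244, 798 and 935 in MG (-0.36 ± 0.35, adjusted p = 0.217). Within 100 kb of any annotated Bach2 start site lay 53 of its 54 peaks, all but the called peak at -112.3 kb. Those peaks held 7510, 9041 and 4821 in BMDM and 7568, 5887 and 6037 in MG (0.36 ± 0.44, adjusted p = 0.919). The promoter share of those counts was 8.69%, 9.52% and 8.34% in BMDM and 16.4%, 13.6% and 15.5% in MG. The log2 ratio behind it differed by -0.88 ± 0.26, or -0.64 relative to the median gene, and did not pass (adjusted p = 0.0919). None of the 7 genes had a called ratio within 100 kb, against 0.770% of all genes called higher and 3.64% lower.

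Bach1, the haem-sensing repressor, had 21 tested peaks, of which 7 had all BMDM libraries above all MG libraries (33.3%, against 17.0% of all tested peaks), none had them below (against 12.9%) and none was called by limma. Its single promoter peak (chr16:87698530-87700420) held 1617, 1300 and 802.5 in BMDM and 1511, 1108 and 1248 in MG (0.03 ± 0.36, adjusted p = 0.891). The smallest p belonged to a peak at -40.8 kb (chr16:87658494-87658778), with 135, 150 and 41.7 in BMDM and 11.1, 37.2 and 22.4 in MG. The groups were apart, but BMDM 3 lay close to MG 2 (2.25 ± 0.57, adjusted p = 0.0531). A peak 35.6 kb downstream (chr16:87734882-87735218) was similar, with 77.4, 94.5 and 34.4 in BMDM and 23.0, 23.0 and 9.72 in MG (1.94 ± 0.50, adjusted p = 0.0566). The authors' deposited table gives these 2 peaks log2 fold changes of 2.20 and 1.89 with adjusted p of 0.00396 and 0.0119, the only Bach1 peaks called there. Within 100 kb Bach1 held 5340, 5045 and 2873 in BMDM and 4399, 3392 and 3575 in MG (0.45 ± 0.38, adjusted p = 0.814).

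Nfe2l2, which encodes Nrf2, had no peak with the groups apart (17.0% of all tested peaks had BMDM above and 12.9% below). Its 12 peaks, all tested, had differences between -0.10 and 0.76. The promoter peak (chr2:75703447-75705586), which holds the printed core, had 3380, 2085 and 1632 in BMDM and 3365, 1907 and 2333 in MG (0.01 ± 0.41, adjusted p = 0.880). The smallest p was that of a peak in intron 1 of 4 (chr2:75689013-75689674), with 262, 243 and 120 in BMDM and 157, 116 and 114 in MG (0.76 ± 0.37, adjusted p = 0.331). Within 100 kb Nfe2l2 held 6528, 5190 and 3183 in BMDM and 6050, 3566 and 4179 in MG (0.36 ± 0.41, adjusted p = 0.922).

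Keap1, the inhibitor of Nrf2, had 6 tested peaks, of which 2 had all BMDM libraries above all MG libraries (33.3%, against 17.0% of all tested peaks) and none was called. Its main promoter peak (chr9:21238372-21239420) held 573, 499 and 389 in BMDM and 739, 509 and 506 in MG (-0.12 ± 0.32, adjusted p = 0.661). The smallest p was that of a peak downstream of the promoter (chr9:21227556-21228113), which the deposited table places in an intron of another transcript, with 65.5, 38.2 and 45.3 in BMDM and 29.4, 15.3 and 15.5 in MG (1.43 ± 0.42, adjusted p = 0.0865). Within 100 kb Keap1 held 1775, 1707 and 1125 in BMDM and 1783, 1492 and 1472 in MG (0.20 ± 0.30, adjusted p = 0.919).

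**Figure D4:**
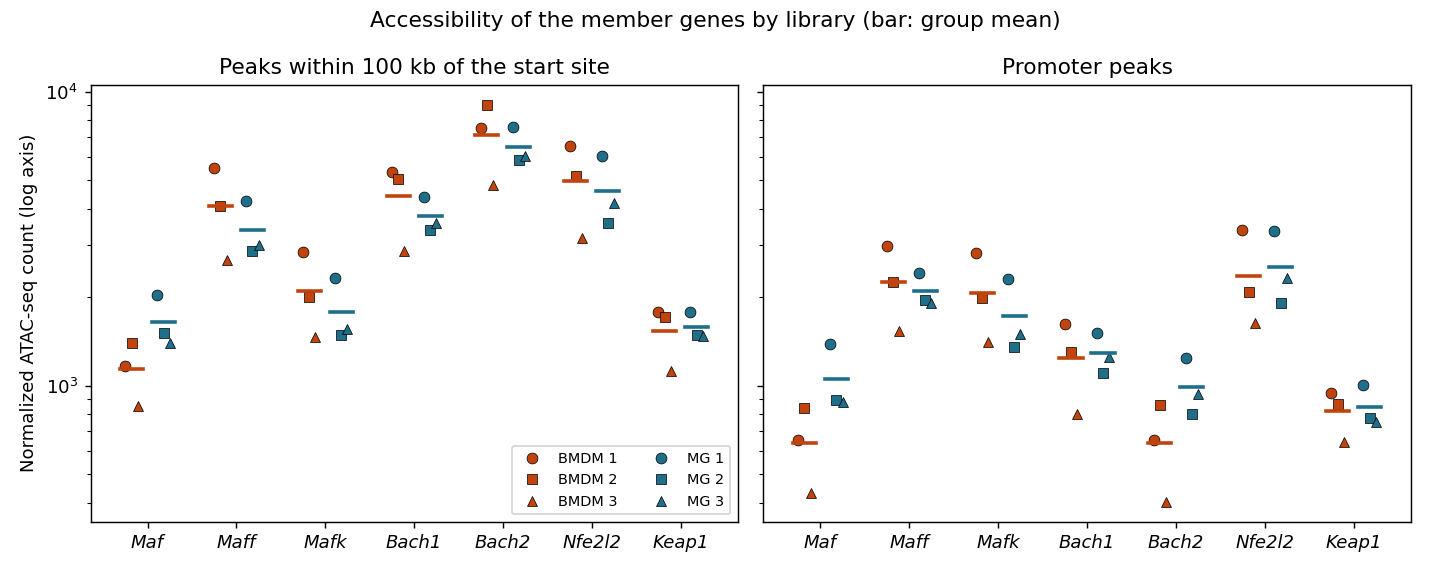
Normalized ATAC-seq counts (y axis, log scale) of each gene summed over peaks within 100 kb of a start site (left) and over promoter-class peaks (right); each symbol is 1 library, BMDM left of MG, and bars are group means of 3 libraries. The Maf values of BMDM lie below those of MG in both panels, and in the other 6 genes the groups overlap.

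Sums over peaks grow with the number and length of the peaks, so levels of different genes are not compared as amounts of opening per base. Ratios between partners within a library remove library scaling. The log2 ratio of Nfe2l2 to Keap1 was 1.88, 1.6 and 1.5 in BMDM and 1.76, 1.26 and 1.51 in MG. That of Bach1 to Nfe2l2 was -0.29, -0.04 and -0.15 in BMDM and -0.46, -0.07 and -0.23 in MG, and that of Maff to Mafk was 0.95, 1.02 and 0.87 in BMDM and 0.88, 0.95 and 0.96 in MG. The ratio of Bach2 to Bach1 was 0.49, 0.84 and 0.75 in BMDM and 0.78, 0.80 and 0.76 in MG. In each of the 4 ratios the groups overlapped.

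Across the 6 libraries the gene sum of Maf correlated less with the other 6 genes than those did with each other. Pearson's r of the log2 sums was 0.73 to 0.99 among the other 6 genes, highest between Maff and Mafk, and 0.28 to 0.72 between Maf and each of them. These values describe 6 libraries in 2 groups that also differ in depth. Unlike the ratios, they carry any difference between whole libraries that the size factors leave, and its part was not tested. Scaled by library totals, the SE of the gene value was 0.16 for Maff and 0.15 for Mafk, against 0.38 and 0.34. Among 8478 genes with sums above the median gene, those most like Maf were H4c4, Cops7a and Spout1 (r = 0.996 to 0.998). For Maff they were Zfp971, Lrrfip1 and Xpo6, for Mafk H2-Ke6, Sec22c and Tbc1d8, and for Bach1 Tm4sf5, Mfsd14b and Dot1l. For Bach2 they were Kdm4d, Atrnl1 and Zbtb17 (r = 0.991 to 0.996), for Nfe2l2 Tnfaip8, Rabgef1 and Cfdp1, and for Keap1 Ppp1r3f, Tex22 and Adam17.

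Genes around these factors were compared by the same gene sums. Of 10 relatives and regulators none was called in either direction, all BMDM libraries were below all MG libraries in 3 and above in none (21.5% and 6.87% of all genes), and the median difference was 0.16. The largest sums belonged to Gsk3b, a kinase that acts on Nrf2 stability (0.29, adjusted p = 0.983), and Nfe2l1, an Nrf2 relative (0.04, adjusted p = 0.727). Btrc, the adaptor of another ligase that acts on Nrf2, held 1031 to 1454 in BMDM and 1841 to 2133 in MG, with the groups apart (-0.40 ± 0.29, adjusted p = 0.198). By promoter sums 1 of the 10 was called, Nfe2l3, another Nrf2 relative, which fell (-0.88, adjusted p = 0.0134). It did not pass without BMDM 1, BMDM 3, MG 2 or MG 3 (adjusted p = 0.0908 to 0.1355). The gene sum of Nfe2l3 was 85.3, 101 and 123 in BMDM and 124.5, 370 and 228 in MG. MG 2 was highest, MG 3 next and MG 1 close to BMDM 3, the order of the neural and glial markers within MG. Whether these are linked was not tested. Rbx1, a subunit of the Cul3 ligase, differed by -0.05 in its gene sum (adjusted p = 0.584).

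Of 27 targets of Nrf2 and Bach1 26 were tested, 1 was called higher and 1 lower, against 2.14% and 3.51% of all genes, shares near the background, and the median difference was 0.19. Mgst1, a microsomal glutathione transferase, rose in BMDM, with 149, 182 and 127, against 39.7, 74.9 and 59.3 in MG (1.68 ± 0.36, adjusted p = 0.0333). Gsta4, a glutathione transferase that clears lipid aldehydes, fell in BMDM, with 147, 157 and 143, against 339, 298.5 and 273 in MG (-0.75 ± 0.28, adjusted p = 0.0451). In both the groups were apart. Mgst1 did not pass without any 1 of the BMDM libraries or without MG 3 (adjusted p = 0.0697 to 0.208), nor did Gsta4 (0.0741 to 0.176). Without BMDM 2 no gene sum of the whole table passed. The largest sums in the list belonged to Fth1 (ferritin heavy chain, 0.70, adjusted p = 0.575), Ftl1 (ferritin light chain, 0.33, adjusted p = 0.941), Gclc (glutathione synthesis, -0.02, adjusted p = 0.636) and Slc7a11 (the cystine importer). By promoter sums 1 of 25 targets tested was called higher, Mgst1 (1.73, adjusted p = 0.00425), and 3 lower, against 2.75% and 9.16% of all promoters. Those 3 were Gsta4 (-0.70, adjusted p = 0.0216), Me1, which makes NADPH (-1.17, adjusted p = 0.00384), and Slc40a1, the iron exporter (-0.67, adjusted p = 0.0384). Mgst1 did not pass there without BMDM 2 or BMDM 3 (adjusted p = 0.0759 and 0.0514), Gsta4 without any 1 of the BMDM libraries or MG 3 (0.0538 to 0.126), Me1 without BMDM 2 or MG 2 (0.0636 and 0.0763), nor Slc40a1 without BMDM 2, BMDM 3, MG 1 or MG 3 (0.164 to 0.423). By gene sums Me1 held 107, 123 and 129 in BMDM and 121, 316 and 154 in MG. The groups overlapped, with MG 2 highest and MG 3 next, as for Nfe2l3. Slc7a11 held 3184, 2709 and 1707 in BMDM and 1787, 1265 and 1226 in MG by gene sums, with BMDM 3 below MG 1 (1.07 ± 0.33, adjusted p = 0.167). Hmox1, haem oxygenase and the classical Bach1 target, held 976, 984 and 534 in BMDM and 1400, 1114 and 977 in MG and was not called (-0.25 ± 0.31, adjusted p = 0.342).

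Of 8 macrophage genes described as dependent on Maf, 2 were called higher and none lower, against 2.14% and 3.51% of all genes, and the median difference was 0.10. Il10, an immunosuppressive cytokine that Maf activates, rose in BMDM, with 2246, 2308 and 1149, against 697, 668 and 534.5 in MG (1.795 ± 0.32, adjusted p = 0.0122). Cd163, the haemoglobin scavenger receptor, rose too, with 254, 269 and 174 in BMDM, against 105.5, 116 and 85.5 in MG (1.43 ± 0.32, adjusted p = 0.0425). Without BMDM 1 or BMDM 2 neither was called (adjusted p = 0.0678 to 0.227), and Cd163 was not without MG 3 (0.204). Without BMDM 2, as given above, no gene sum passed. The list split in direction, since C1qa, C1qb and C1qc, the subunits of complement C1q, were at -0.62, -0.74 and -0.62 (adjusted p = 0.151, 0.0969 and 0.156) and Mertk, a receptor for engulfing dead cells, at -0.52 (adjusted p = 0.141). In promoter-class peaks alone 7 of the 8 genes were tested, 1 was called higher and 3 lower, against 2.75% and 9.16% of all promoters. There Il10 rose (1.985, adjusted p = 1.316e-05), and C1qa (-0.78, adjusted p = 0.00915), C1qb (-0.86, adjusted p = 0.00486) and Mertk (-0.79, adjusted p = 0.0127) fell. C1qc was at -0.57 (adjusted p = 0.0542) and Cd163 at 1.85 (adjusted p = 0.100). Each of these 3 falls was lost without some 1 library: C1qa without BMDM 3, MG 1 or MG 3 (adjusted p = 0.106 to 0.334), C1qb without those or BMDM 2 (0.0644 to 0.209) and Mertk without BMDM 2, MG 1 or MG 3 (0.0717 to 0.113). These promoter p-values rest on variance shared across promoters and say little of a promoter's own spread. Over all peaks within 100 kb Mertk held 1238, 933 and 862 in BMDM and 2362, 1386 and 1570 in MG, with the groups apart. By the same sums C1qa held 379, 297 and 199 in BMDM and 884, 321 and 508 in MG. C1qb held 631, 388.5 and 330 in BMDM and 1363, 550 and 875 in MG. C1qc held 591, 335 and 301 in BMDM and 1217, 457 and 678 in MG. In all C1q genes the groups overlapped and MG 1 was highest. Microglial marker sums were lower and monocyte marker sums higher in BMDM, as given above, and their part in these differences was not tested.

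**Figure D5:**
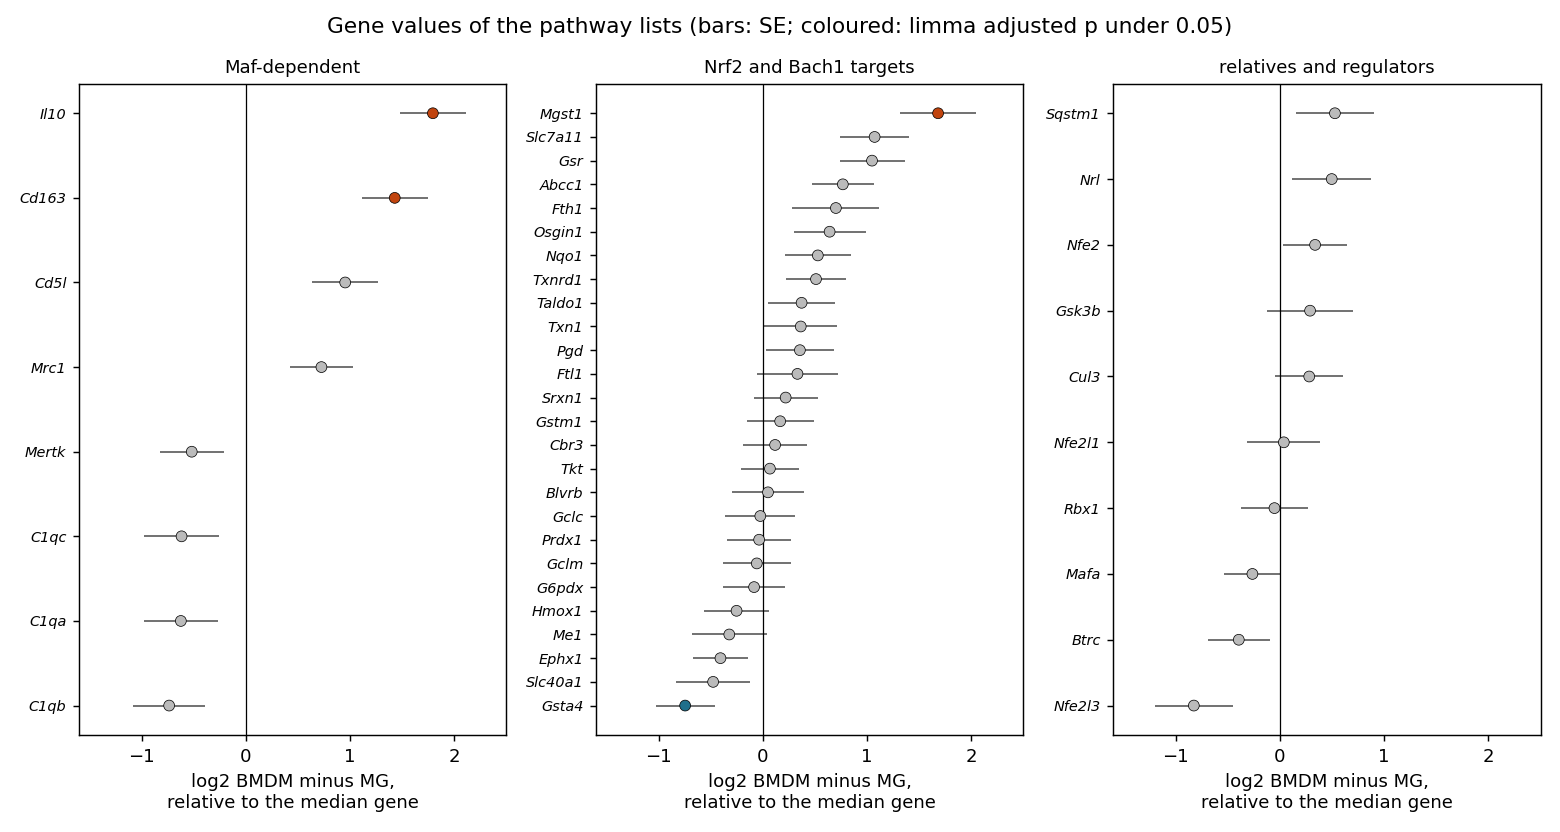
Gene differences (x axis, log2 BMDM minus MG of sums within 100 kb, relative to the median gene, with SE bars) for Maf-dependent genes (left), targets of Nrf2 and Bach1 (middle) and relatives and regulators (right); coloured points have adjusted p under 0.05. Il10, Cd163 and Mgst1 lie at 1.795, 1.43 and 1.68, Gsta4 at -0.75, and the other points did not pass the test.

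The peak lists called in each library gave a coarser view. Of the 152 peaks 33 overlapped a listed peak in all 6 libraries, 10 of them at Bach2, 8 at Bach1 and 4 each at Maf and Nfe2l2. Another 23 were listed in at least 1 BMDM library and no MG library, 23 in at least 1 MG library and no BMDM library, and 21 in none. The lists hold 17741 to 52631 peaks in BMDM and 50217 to 70739 in MG, and BMDM 3 has the shortest, so no difference is read from these counts.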

How the data were processed

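ATAC-seq was measured in 3 BMDM and 3 MG libraries, grouped by the labels. Whether each library is a separate animal is unstated. A p-value here reflects the spread of libraries alone, in part shared across features, and that spread may be technical. Per the submitters' processing notes the authors used build mm10, DESeq2 1.36.0, ChIPseeker 1.32.1, MACS2 2.1.1.20160309, Bowtie2 2.4.1 and cutadapt 1.8.1. Settings, any Tn5 shift and duplicate removal are not stated. The deposited table holds variance-stabilized log2 values per library, log2 fold changes, a mean normalized signal, a test score and p-values made by the authors. The deposited peak lists, 1 per library, hold a score, a fold enrichment ratio and −log10 p and q. The table has 8 further per-sample columns that no label matches, and these were left out. Of 93084 lines, 155 were repeats and 65 distinct peaks had no annotation. Starts in the table counted from 0 and are printed from 1.

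The stabilized values were inverted to normalized counts, with a relative error against the deposited mean of 2.37e-06 or less. Times the size factors, 99.9989% or more of the peaks of every library came out as whole reads (within 0.02). Count limits cover counting error alone, since PCR copies are no separate molecules. limma 3.58.1 (R 4.3.3) with a trend was fitted to log2(normalized count + 1) over all features with a mean of at least 10, per peak, per gene (peaks within 100 kb of a start site), per promoter sum and per promoter to other ratio. With this pseudocount, changes of low peaks are understated. At promoters the variance shared across features took nearly all the weight, so a p-value there says little of a promoter's own spread. The same held for gene sums with a block for replicate numbers or without any MG library, and for peaks without MG 1. Listed means an overlap of at least 1 base. The tests were run on simulated counts drawn independently for each feature, with a fixed spread and no difference between whole libraries beyond scaling. That check cannot give the error rates in these libraries, which differ more widely.

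The genes, lists and tests were chosen with earlier results of these data known. Named are all these genes, each main promoter peak, up to 5 called peaks a gene or else the peak with the smallest p, the called genes of each list with up to 4 more of the largest sums, and the 3 genes most alike. The sixth called Bach2 peak, Hmox1, Mertk and other peaks given beside these were chosen after their values were seen. 1 gene of these lists is not reported here. Alternatives changed the scaling, filter, pseudocount, model, window and libraries.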

Additional observations from a re-analysis of the deposited data

How the results depend on the processing

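The 9 called Maf and Bach2 peaks kept a difference of 1.21 to 3.57 relative to the median peak under every alternative in which they were tested. All 9 were called with TMM factors, cyclic loess, library totals, no filter, a pseudocount of 4, robust moderation, the replicate block and without MG 1, and 8 were called without MG 2. With a filter of 30, which leaves 1 untested, the other 8 were called. Without BMDM 3, 4 of the 9 were called. None was called with voom (adjusted p = 0.0505 to 0.0763) or without BMDM 1, BMDM 2 or MG 3 (0.0767 to 0.210), settings in which no peak of the whole table passed. Over all 146 peaks, the number called higher in BMDM was 15 with TMM factors, 24 with cyclic loess, library totals or the replicate block, 0 with voom and 0 to 27 without 1 library, the 27 without MG 1. The number called lower, 0 in the report, was 1 with cyclic loess, library totals or the block and 0 to 6 without 1 library, the 6 without MG 1. Calls over all 87944 tested peaks moved as well, from 4687 higher and 1352 lower in the report. They numbered 7031 and 1190 with TMM factors, 6950 and 2305 with cyclic loess and 7030 and 1136 with library totals. With the block they were 9212 and 5215, and without MG 1 10603 and 11278. Calls outside Maf and Bach2, none in the report, arose too. Bach1 had 2 peaks called higher with TMM factors, cyclic loess, the block or without MG 2, 3 with library totals, 4 without MG 1 and 1 with a filter of 30 or without BMDM 3. Maff had 4 with cyclic loess, 2 with library totals and 1 with the block. Mafk had 2 with cyclic loess or library totals and 1 without MG 1, Keap1 1 with the block or without MG 1, and Nfe2l2 1 with cyclic loess. Among promoters 1, that of Mafk, was called higher with cyclic loess. Of the 9 listed genes named for promoter calls, Il10 was called under every alternative. Mgst1 lost its call without 1 library only, Mertk also with voom (adjusted p = 0.0560) and Me1 also with cyclic loess and library totals (0.0966 and 0.175). C1qb and Gsta4 were not called with cyclic loess, library totals or voom (0.0586 to 0.145), nor were C1qa, Nfe2l3 and Slc40a1 in these or with TMM factors (0.0571 to 0.519).

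Of relatives and regulators 1 was called lower with the block or robust moderation, and 0 to 1 without 1 library. Targets called higher numbered 4 with cyclic loess, 3 with library totals (without Mgst1, adjusted p = 0.0736) or the block and 0 to 1 without 1 library. Targets called lower numbered 0 with TMM factors, cyclic loess, library totals, voom or all annotated peaks, 2 with the block and 0 to 2 without 1 library. Maf-dependent genes called higher numbered 1 with voom and 0 to 2 without 1 library. Those called lower numbered 1 with cyclic loess or robust moderation, 4 with the block and 0 to 3 without 1 library. Over all 18246 genes tested, 391 were called higher and 640 lower in the report. These counts became 1117 and 397 with cyclic loess, 562 and 251 with library totals and 912 and 2333 with the block. With an overlap of at least 0.5 of the peak, 14 peaks were listed in all 6 libraries. The cause of these shifts was not tested.

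Signs turned only for values that passed no test. The Maf gene value became 0.5177 with all annotated peaks and the Nfe2l2 promoter sum -0.0385 with cyclic loess. Without 1 library, the ratio of promoter to other counts ranged from -0.4581 to 0.0742 for Maff, from -0.1517 to 2.0635 for Mafk and from -0.3979 to 0.0698 for Nfe2l2. The main promoter peak ranged from -0.1049 to 0.3417 for Maff, from -0.0941 to 0.4116 for Mafk, from -0.2019 to 0.2613 for Bach1, from -0.2961 to 0.1872 for Nfe2l2 and from -0.2609 to 0.0045 for Keap1. Without a filter that of Nfe2l2 was at -0.0005, and with cyclic loess that of Keap1 was at 0.0762. Deviations of same-numbered libraries from their group means correlated at 0.426, -0.0691 and 0.317, so the replicate numbers were not taken to pair the libraries, and the block changed no other call than those given. Depth limits BMDM 1 and BMDM 3 most, where the median peak held 20 and 24 reads.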
